A study of Mus musculus with 56 samples.

Results

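Gastrocnemius, a calf muscle of mostly fast fibres, was compared at zeitgeber time 12 (ZT12, the hour of lights off) between mice fed in the light phase and mice fed in the dark phase. The comparison was chosen by its labels alone and holds 8 of the 56 libraries of the series, 4 from daytime-restricted feeding (DRF) and 4 from nighttime-restricted feeding (NRF). Both groups were female C57BL/6J mice, 9 weeks old, without any genetic change or drug, kept in cycles of 12 h of light and then darkness. They had chow freely for 7 days and then 7 days of restricted feeding. At ZT12 the DRF mice stood at the end of their feeding phase and the NRF mice at the end of their daily fast, so that the same clock hour had opposite feeding states. The labels do not give the hours within the phase at which food was offered, how much was eaten, or whether each library came from its own animal. The p-values therefore measure the spread between libraries of a group, estimated here over all 14 groups of the series, which may in part be technical.

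Muscle shifts its fuel with feeding. After a meal insulin favours glucose uptake, glycogen and protein synthesis and, through the transcription factors SREBP-1 and SREBP-2, lipid and sterol synthesis. In a fast, fatty acids from adipose tissue activate the PPAR receptors, whose target genes bring fatty acids into mitochondria and hold back the oxidation of pyruvate, while glucocorticoids and the FoxO factors, no longer restrained by insulin, turn on genes of protein breakdown and autophagy. Muscle also has its own circadian clock, in which BMAL1 and CLOCK bind E-box sequences (CACGTG) and drive their own repressors. Feeding time acts on muscle beside the light-driven signals from the brain.

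Levels are CPM, read counts recovered from the deposited values, scaled to the authors' library size, and differences are DRF minus NRF on the log2(CPM + 1) scale, where folds of weakly expressed genes are compressed. A gene was called at an adjusted p under 0.05 in limma (Benjamini-Hochberg over 12025 genes), and all adjusted p-values below come from that fit or its alternatives. The 8 libraries held 28173235 to 32884598 reads, and the 10 most abundant genes took 25.57% to 30.52% of them in DRF and 20.33% to 28.14% in NRF. All 9 muscle markers were detected in every library, and they summed to 129375 to 177076 CPM in DRF and 98454 to 144260 CPM in NRF. Slow fibre markers varied more within each regimen than between them, with sums of 276 to 3020 CPM in DRF and 229 to 3990 CPM in NRF. NRF replicate 3 had the highest sums of matrix markers (4624 CPM), macrophage markers (247 CPM) and Schwann cell markers (268 CPM) of the 8 libraries, and NRF replicates 3 and 4 had the lowest library weights in limma (0.346 and 0.476). In bulk tissue, fewer cells of a type and less RNA per cell cannot be told apart.

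At ZT12, 421 of the 12025 genes were called (3.50%), with 258 higher in DRF (2.15%) and 163 lower (1.36%). Called or not, 5706 of the 12025 genes had a positive difference and 6319 a negative one. Most changes were small. The median difference was 0.39 among the genes called higher and -0.44 among those called lower, and only 4 genes were higher and 14 lower by at least 1 log2 unit. The DRF and NRF libraries did not overlap for 323 of the called genes, and for 1261 of all genes tested (10.5%). Among called genes with whole reads and no overlap, the largest falls were in Pdk4, Pck1, Cyp2e1 and Ucp3 and the largest rises in Cited4, Tnfaip2, Golga7b, Lrrc38 and Myod1.

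**Figure D1:**
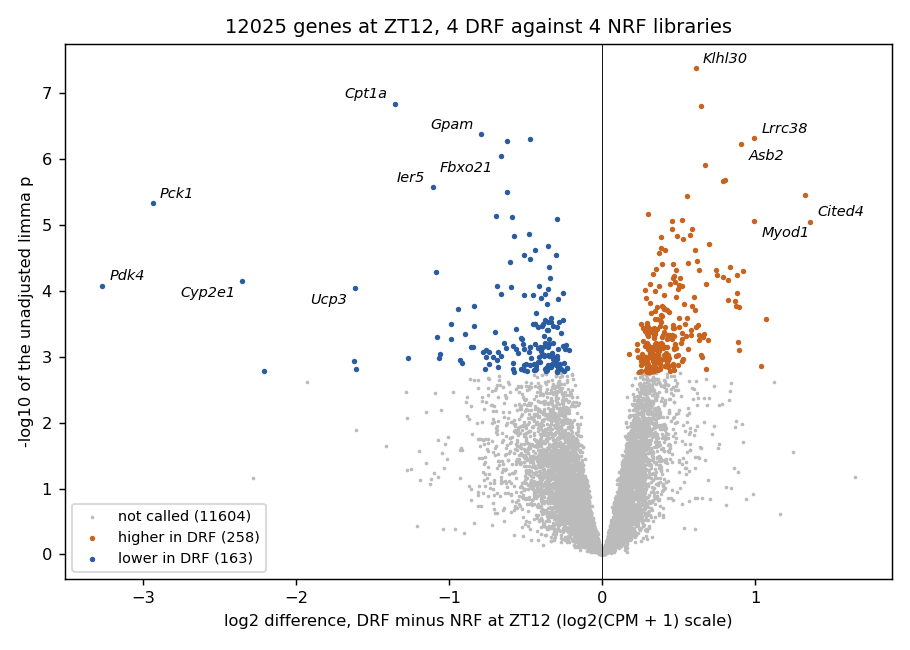
Difference at ZT12, DRF minus NRF, on the log2(CPM + 1) scale against -log10 of the unadjusted limma p, 1 point per gene tested. The 258 genes called higher in DRF (orange) spread to 1.35 and the 163 called lower (blue) to -3.27, where Pdk4 and Pck1 stand apart.

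The count of calls depended on single libraries. It was 51 without DRF replicate 1, 711 without DRF replicate 2, 128 without DRF replicate 3 and 60 without DRF replicate 4, and it was 213, 202, 51 and 1118 without NRF replicates 1, 2, 3 and 4. The balance of directions depended on the library size. With the recovered totals in place of the authors' sizes, the median of all genes moved to -0.16, against -0.01 in the fit reported here, and 728 genes were called, 80 higher and 648 lower. On log2 of the deposited values the split was 408 higher and 123 lower, and with a trend in gene length removed it was 262 and 103. The 48 called genes chosen by size, by list or by a change between hours kept their sign under every alternative, and 12 of them stayed called whichever library was left out: Asb2, Cited4, Cpt1a, Fbxo21, Fdps, Gpam, Ier5, Klhl30, Lrrc38, Myod1, Pck1 and Pik3c3. With only the 8 libraries of ZT12 in the fit, 22 genes were called, and 38 of the 48 lost their call. Of the 12 genes, Cpt1a, Ier5, Klhl30, Lrrc38, Myod1 and Pck1 were then still called (adjusted p = 0.0442 each in limma), and Asb2, Gpam, Fbxo21, Cited4, Fdps and Pik3c3 were not (0.0507, 0.061, 0.0697, 0.0735, 0.0735 and 0.118).

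**Figure D2:**
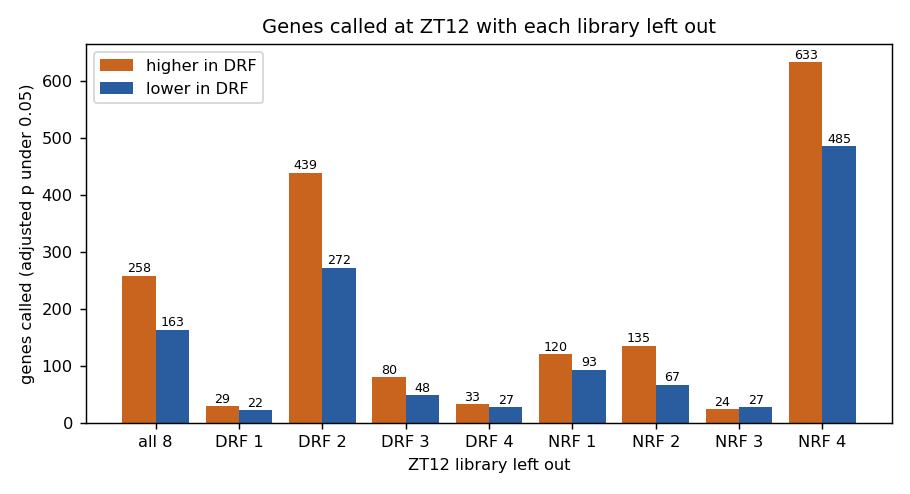
Genes called higher (orange) and lower (blue) in DRF at ZT12 with all 8 libraries and with each library left out in turn. The counts stand at 258 and 163 with all libraries, at 24 and 27 without NRF replicate 3, and at 633 and 485 without NRF replicate 4.

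Several genes that spare glucose and burn fat in the fasted state were lower in DRF muscle. Of 16 PPAR fasting targets tested, 4 fell, among them Pdk4, Ucp3 and Cpt1a, and none rose, against 1.36% of all genes called lower. The list's median difference was -0.61, against -0.01 over all genes, and 13 of its 16 members were negative. Pdk4 (gene 27273, chr6:5483351-5496278) encodes the kinase that switches off pyruvate dehydrogenase. It stood at 22.1, 25.9, 27.04 and 37.5 CPM in the DRF libraries, against 188, 557, 261 and 207 CPM in the NRF libraries. No DRF library came near the lowest NRF library. The difference was -3.27 ± 0.76 (SE), with an adjusted p of 0.0136 in limma. Within NRF the hours were not tested against each other. Pdk4 was not clearly higher at the end of the fast. It averaged 303.5 ± 171.9 CPM at ZT12 and 290.7 ± 247.1 and 491.3 ± 524.1 CPM at ZT0 and ZT24 (SD, n = 4 each). Within DRF it averaged 28.1 CPM at ZT12 and 2872 and 2891 CPM at ZT0 and ZT24.

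Cpt1a (gene 12894, chr19:3322326-3385735) encodes a carnitine palmitoyltransferase that admits fatty acids to mitochondria. It had 5.29, 6.80, 5.76 and 5.75 CPM in the DRF libraries, against 12.2, 22.6, 20.7 and 13.1 CPM in the NRF libraries. The DRF libraries lay close together and below all NRF libraries (-1.35 ± 0.22, adjusted p = 0.000628 in limma). Ucp3 (gene 22229, chr7:100472991-100486432), a mitochondrial carrier, had 26.2, 22.9, 17.6 and 26.4 CPM in the DRF libraries, against 56.8, 126, 72.3 and 53.99 CPM in the NRF libraries (-1.62, adjusted p = 0.0141). Within NRF, Ucp3 averaged 77.2 CPM at ZT12 and 78.8 and 87.2 CPM at ZT0 and ZT24. Within NRF, Cpt1a averaged 17.2 ± 5.249 CPM at ZT12 and 12.3 ± 5.268 and 9.29 ± 2.455 CPM at ZT0 and ZT24 (SD, n = 4 each). This difference between hours was not tested.

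The other 12 fasting targets did not pass the test. Angptl4, a secreted inhibitor of lipoprotein lipase, had 0.404, 0.355, 0.176 and 0.773 CPM in DRF and 0.781, 3.42, 3.33 and 1.45 CPM in NRF, without overlap (-1.10, adjusted p = 0.243 in limma). Slc25a34, a mitochondrial carrier, differed by -1.19 with 3.79, 6.61, 5.69 and 3.87 CPM in DRF and 24.7, 28.2, 6.27 and 4.90 CPM in NRF, where NRF replicates 3 and 4 stood near the DRF level (adjusted p = 0.275). The regulators of these genes showed no call in either direction among 16 tested, with Ppargc1a at -0.02 and Ppara at -0.31. None of 24 genes of fatty acid uptake and oxidation was called (median -0.05), the related transferase gene Cpt1b among them. Pdk4 was the only call among 14 genes of pyruvate dehydrogenase control. Cpt1a stayed called without any single library (adjusted p 0.000315 to 0.00829), while Pdk4 lost its call without DRF replicate 1 (0.0592) and was kept in 6 of 8 leave-outs and Ucp3 was kept in 5 of 8 (highest 0.0593 without NRF replicate 2).

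Pck1, Cyp2e1 and Cidec, which adipocytes also express, were lower in DRF. Pck1 (gene 18534, chr2:173153073-173159274), the cytosolic carboxykinase that supplies glycerol phosphate in fasting, had 0.551, 0.451, 1.72 and 1.65 CPM in the DRF libraries, against 5.81, 12.4, 33.1 and 16.97 CPM in the NRF libraries (-2.94 ± 0.57, adjusted p = 0.00335 in limma). Cyp2e1, a cytochrome P450 that oxidises ethanol and acetone, had 8.27, 4.80, 13.2 and 13.3 CPM in the DRF libraries, against 61.4, 18.8, 81.5 and 72.01 CPM in the NRF libraries (-2.35, adjusted p = 0.013). Cidec, which fuses lipid droplets, had 5.04, 2.32, 7.55 and 8.91 CPM in the DRF libraries, against 18.9, 9.53, 32.6 and 19.8 CPM in the NRF libraries (-1.61, adjusted p = 0.0473). The rule that chose these genes took only groups that do not overlap, and DRF replicate 2 was the lowest library in each.

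Of 10 adipocyte markers, 9 were lower in DRF on average and Car3 was not. Adipoq, an adipocyte hormone, stood at 9.60, 5.77, 14.6 and 16.5 CPM in DRF and 17.1, 13.01, 36.95 and 21.98 CPM in NRF. All 10 adipocyte markers summed to 4902 to 6115 CPM in DRF and 3744 to 7543 CPM in NRF, with overlap. Most of that sum was Car3, a carbonic anhydrase that muscle also expresses, at 4634 to 5895 CPM in DRF and 3368 to 7199 CPM in NRF (0.09, adjusted p = 0.85 in limma). The 7 markers other than Car3, Pck1 and Cidec summed to 160 to 283 CPM in DRF and 290 to 586 CPM in NRF, without overlap, a subset chosen after the values were seen. The list of 10 had a median of -0.79 with 2 calls, Pck1 and Cidec, both lower, against 1.36% of all genes called lower. Relative to Adipoq in the same library, Pck1 was 0.0575, 0.0782, 0.118 and 0.0998 in DRF and 0.341, 0.953, 0.895 and 0.772 in NRF, without overlap. Cyp2e1 relative to Adipoq was 0.862, 0.832, 0.908 and 0.804 in DRF and 3.60, 1.45, 2.21 and 3.28 in NRF, and Cidec was 0.525, 0.402, 0.518 and 0.540 in DRF and 1.11, 0.732, 0.882 and 0.900 in NRF, without overlap. The part of adipocytes in these differences was not tested. Pck1 kept its call without any single library (adjusted p 0.00283 to 0.0323), Cyp2e1 in 6 of 8 leave-outs (highest 0.0818 without NRF replicate 3) and Cidec in 2 of 8 (highest 0.23 without NRF replicate 3).

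Among 16 genes of lipid droplets and lipolysis, Lipe and Plin4 fell and Hilpda rose, against 3.50% called over all genes, with a list median of -0.07. Lipe (gene 16890, chr7:25379527-25398486), hormone-sensitive lipase, had 14.01, 13.8, 18.4 and 18.99 CPM in the DRF libraries, against 27.9, 30.8, 35.4 and 25.1 CPM in the NRF libraries (-0.84 ± 0.20, adjusted p = 0.0199 in limma). Plin4, a perilipin that coats droplets, had 356, 274, 262 and 254 CPM in the DRF libraries, against 412, 531, 524 and 398 CPM in the NRF libraries (-0.70, adjusted p = 0.0306). Hilpda, an inhibitor of the main triglyceride lipase, was low but apart, with 3.12, 3.32, 3.06 and 3.87 CPM in DRF and 2.06, 2.12, 1.91 and 2.50 CPM in NRF (0.46, adjusted p = 0.00985). Relative to Adipoq, Lipe overlapped between the regimens (1.46, 2.39, 1.27 and 1.15 in DRF and 1.63, 2.37, 0.958 and 1.14 in NRF), as did Plin4 (37.1, 47.4, 18.0 and 15.4 in DRF and 24.2, 40.8, 14.2 and 18.1 in NRF), and the part of adipocytes in their fall was not tested. G0s2, another lipase inhibitor, had 23.1, 29.7, 19.8 and 27.9 CPM in DRF and 18.6, 14.5, 13.3 and 7.78 CPM in NRF, without a call (adjusted p = 0.238). Leaving out 1 library kept Lipe in 6 of 8 cases (highest adjusted p 0.111 without NRF replicate 3), Plin4 in 4 of 8 (0.145 without NRF replicate 3) and Hilpda in 6 of 8 (0.0637 without DRF replicate 4), and with recovered totals Hilpda had an adjusted p of 0.0693.

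Lipe is shown with its promoters because it is the called gene of fat breakdown whose upstream sequence holds letters bound by factors of both the clock and the fast. RefSeq (GRCm38.p6) gives more than 1 start, and the windows run from 250 bases before to 50 after it, 5′ to 3′. Capitals mark the E-box CACGTG in the first and the FoxO core TGTTTAC in the second, searched on both strands with no overlap between them.
Lipe chr7:25395938-25396237 minus strand: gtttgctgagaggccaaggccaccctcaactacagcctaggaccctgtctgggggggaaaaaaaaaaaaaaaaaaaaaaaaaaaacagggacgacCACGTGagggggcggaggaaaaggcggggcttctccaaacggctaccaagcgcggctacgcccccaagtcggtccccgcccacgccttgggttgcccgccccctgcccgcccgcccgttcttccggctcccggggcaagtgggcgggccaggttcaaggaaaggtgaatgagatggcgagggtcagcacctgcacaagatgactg
Lipe chr7:25390063-25390362 minus strand: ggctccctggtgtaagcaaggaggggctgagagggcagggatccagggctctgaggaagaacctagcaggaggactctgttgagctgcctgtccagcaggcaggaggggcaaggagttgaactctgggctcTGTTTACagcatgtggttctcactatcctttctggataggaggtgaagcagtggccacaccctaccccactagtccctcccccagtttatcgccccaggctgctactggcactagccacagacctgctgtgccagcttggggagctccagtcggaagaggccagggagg
An E-box was present in 7.15% and this FoxO core in 3.65% of 32851 promoter windows of the same length, so a match in 1 gene is a description and not a site of binding.

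Genes of fatty acid synthesis went both ways. Of 22 genes of fatty acid and triglyceride synthesis, Srebf1, Fads1 and Fads2 rose, Gpam fell and 18 did not pass, against 3.50% called over all genes. The list had 13 positive and 9 negative members, and its median was 0.42, against -0.01 over all genes. Srebf1 (gene 20787, chr11:60199084-60224186), the transcription factor that insulin induces to drive lipid synthesis, had 60.5, 57.8, 76.6 and 71.7 CPM in the DRF libraries, against 34.2, 29.9, 36.9 and 49.7 CPM in the NRF libraries (0.82 ± 0.20, adjusted p = 0.0173 in limma). Fads1, a desaturase of polyunsaturated fatty acids, had 18.6, 18.3, 20.96 and 19.9 CPM in the DRF libraries, against 11.1, 9.46, 16.9 and 13.3 CPM in the NRF libraries (0.60, adjusted p = 0.0216). Fads2, its partner desaturase, had 3.53, 4.997, 4.46 and 4.81 CPM in DRF and 2.72, 2.63, 2.65 and 2.50 CPM in NRF (0.58, adjusted p = 0.0294). All 3 were apart between the regimens. Srebf1 overlaps Rai1 on the genome, and counting without strand cannot separate reads in the overlap.

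Among the 18 genes that did not pass were enzymes that make and lengthen fatty acids. Acly, which makes cytosolic acetyl-CoA, had 30, 43.5, 50.04 and 46.7 CPM in DRF and 22.8, 20.6, 27.6 and 16.97 CPM in NRF, without overlap (0.92, adjusted p = 0.145 in limma). Fasn, fatty acid synthase, had 90.7, 93.4, 144 and 125 CPM in DRF and 48.8, 47.9, 102 and 40.2 CPM in NRF (0.98, adjusted p = 0.35), and Elovl6, which elongates its product, had 5.99, 9.32, 11.97 and 9.04 CPM in DRF and 2.06, 2.02, 6.27 and 3.41 CPM in NRF (1.25, adjusted p = 0.17). In both, NRF replicate 3 reached the DRF range. Gpam (gene 14732, chr19:55067635-55127319), the mitochondrial acyltransferase that commits acyl groups to glycerides, had 241, 196, 221 and 211 CPM in the DRF libraries, against 298, 476, 382 and 372 CPM in the NRF libraries (-0.80 ± 0.14, adjusted p = 0.000891), and no library overlapped. Relative to Adipoq, Gpam overlapped, with 25.1, 33.9, 15.2 and 12.8 in DRF and 17.5, 36.6, 10.3 and 16.9 in NRF, and the part of adipocytes in its fall was not tested. Gpam kept its call without any single library (0.000458 to 0.0111), while Srebf1 kept it in 3 of 8 leave-outs (highest 0.0708 without DRF replicate 4), Fads1 in 3 of 8 (0.0759 without NRF replicate 2) and Fads2 in 4 of 8 (0.103 without NRF replicate 3). With recovered totals Fads1 and Fads2 were not called (adjusted p = 0.0962 and 0.0842).

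Of 25 genes of sterol synthesis, 4 rose, among them Fdps, Nsdhl and Srebf2, and none fell, against 2.15% of all genes called higher. The list had 21 positive members with a median of 0.10. With recovered totals 10 were positive and the list's median was -0.05, where the median of all genes was -0.16. Fdps (gene 110196, chr3:89093588-89101967), farnesyl diphosphate synthase, had 29.96, 24.6, 29.9 and 30.7 CPM in the DRF libraries, against 19.2, 20.2, 19.3 and 22.1 CPM in the NRF libraries (0.49, adjusted p = 0.00573 in limma). Srebf2, the transcription factor of the pathway, had 21.5, 21.9, 23 and 21.2 CPM in DRF and 15.9, 15.2, 19.2 and 17.1 CPM in NRF (0.36, adjusted p = 0.0367), and Nsdhl, a late sterol dehydrogenase, had 8.75, 8.67, 8.50 and 10.8 CPM in DRF and 6.21, 7.79, 6.51 and 7.30 CPM in NRF (0.36, adjusted p = 0.0203). None of these overlapped between the regimens. Fdps was kept without any single library (0.00319 to 0.0378), Nsdhl in 4 of 8 leave-outs (highest 0.117 without DRF replicate 4) and Srebf2 in 2 of 8 (0.101 without DRF replicate 1). Nsdhl and Srebf2 were not called with recovered totals (adjusted p = 0.151 and 0.268).

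**Figure D3:**
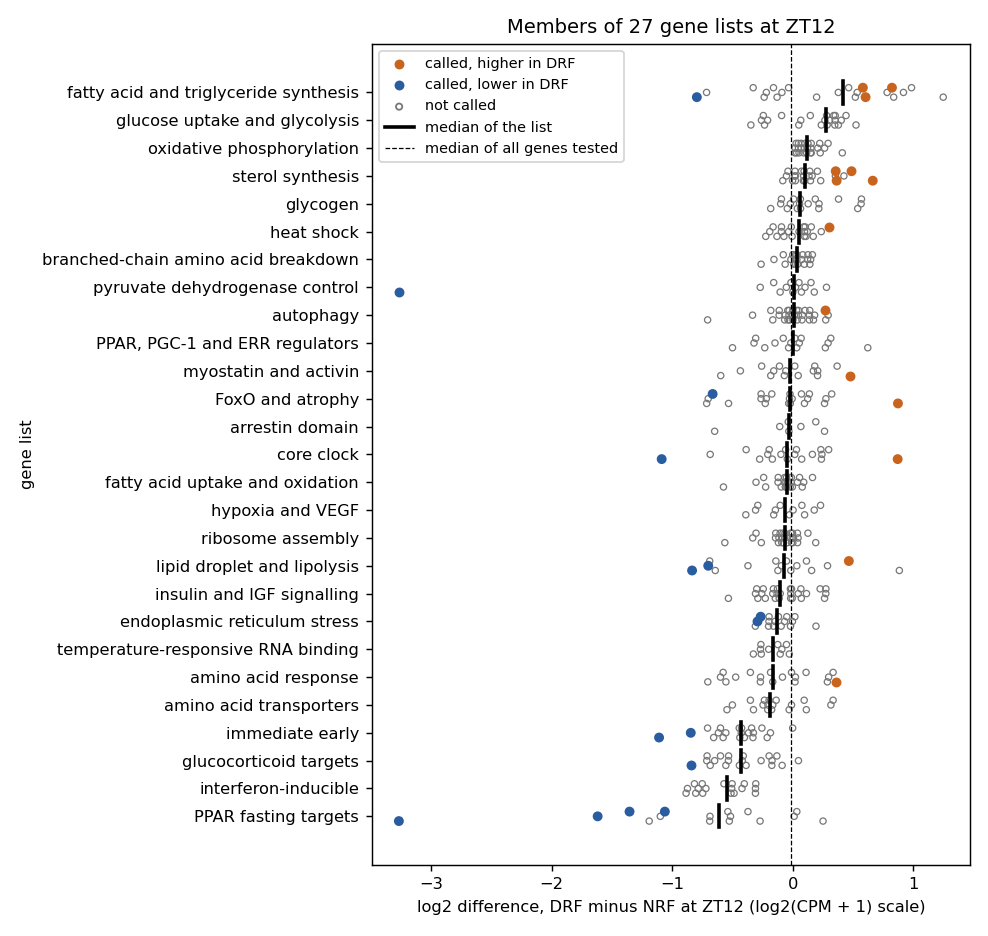
Differences at ZT12, DRF minus NRF on the log2(CPM + 1) scale, for the tested members of 27 gene lists, ordered by their medians (black bars), with called members filled. The medians run from -0.61 for PPAR fasting targets to 0.42 for fatty acid and triglyceride synthesis, and the dashed line marks -0.01, the median of all genes tested.

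Among 22 FoxO and atrophy genes, Foxo6 rose and Fbxo21 fell, against 3.50% called over all genes, and the list's median was -0.03. Foxo6 (gene 329934, chr4:120267078-120287261), a forkhead factor, had 21.9, 18.7, 19.9 and 22.4 CPM in the DRF libraries, against 13.3, 11, 7.67 and 12.3 CPM in the NRF libraries (0.87 ± 0.21, adjusted p = 0.0199 in limma). Fbxo21 (gene 231670, chr5:117976770-118010198), a substrate adaptor of an SCF ubiquitin ligase, had 10.1, 11.5, 9.27 and 10.4 CPM in the DRF libraries, against 16.6, 20.9, 17.04 and 13.9 CPM in the NRF libraries (-0.67 ± 0.12, adjusted p = 0.00122). The best-known ubiquitin ligases of atrophy were not called. Trim63 had 183 ± 19.6 CPM in DRF and 189 ± 39.2 CPM in NRF (SD, n = 4 each, adjusted p = 0.958). Fbxo32, whose reads were decimal because it shares them with other genes and is uncertain, had 94.9, 164, 116 and 104 CPM in DRF and 179.5, 271, 213 and 129 CPM in NRF, with overlap (adjusted p = 0.16). Foxo1 differed by -0.53 (adjusted p = 0.18) and Foxo3 by -0.26 (0.186). Fbxo21 was kept without any single library (0.000315 to 0.0146) and Foxo6 in 5 of 8 leave-outs (highest 0.145 without NRF replicate 3).

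Of 32 autophagy genes, Gabarapl2, a member of the ATG8 family that builds autophagosomes, was the only call, against 3.50% called over all genes, and Pik3c3, a kinase of the pathway that is not on the list, was lower in DRF. Gabarapl2 had 90.7, 79.8, 82.5 and 89.4 CPM in the DRF libraries, against 70.9, 71.6, 66.02 and 74.7 CPM in the NRF libraries (0.27, adjusted p = 0.0435 in limma). Among 20 glucocorticoid targets, Glul fell, against 1.36% of all genes called lower. Of the 20, 19 were negative with a median of -0.43, against 6319 negative of all 12025 genes. Glul (gene 14645, chr1:153899929-153909723), glutamine synthetase, had 360.4, 287, 249 and 301 CPM in the DRF libraries, against 542, 503, 525 and 562 CPM in the NRF libraries (-0.84 ± 0.22, adjusted p = 0.0284), with tight and separate groups. Fkbp5 and Zbtb16, which respond strongly to glucocorticoids, differed by -0.71 and -0.71 without a call (adjusted p = 0.272 and 0.0878). Glul was kept in 3 of 8 leave-outs (highest 0.099 without NRF replicate 3) and Gabarapl2 in 2 of 8 (0.199 without NRF replicate 3), and Gabarapl2 was not called with recovered totals (adjusted p = 0.182).

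Lists of stress genes held 1 or 2 calls each, against 3.50% called over all genes. Atf4 (gene 11911, chr15:80255184-80257545), the transcription factor of the amino acid response, had 183, 166, 186 and 200.2 CPM in the DRF libraries, against 141, 153, 132 and 146 CPM in the NRF libraries (0.36, adjusted p = 0.0289 in limma), while none of the other 18 genes of its list was called and the list's median was -0.17. Hsf1, the heat shock factor, had 56.95, 47.3, 51.3 and 53.4 CPM in DRF and 40.1, 47.3, 35.02 and 47.3 CPM in NRF (0.30, adjusted p = 0.0458), and none of the other 20 heat shock genes was called. In the endoplasmic reticulum list, Canx and Dnajb9 fell of 16. Canx, the chaperone calnexin, had 83.6, 91.9, 85.8 and 78.99 CPM in DRF and 102, 99.1, 109 and 99.4 CPM in NRF (-0.27, adjusted p = 0.0308), and Dnajb9, a co-chaperone of BiP, had 48.02, 47.8, 44.6 and 48.3 CPM in DRF and 60.5, 55.4, 57.1 and 59.1 CPM in NRF (-0.29, adjusted p = 0.0369). Smad6, an inhibitor of BMP signalling, was the only call of 16 myostatin and activin genes, with 9.49, 6.64, 8.01 and 8.0 CPM in DRF and 4.93, 5.50, 4.81 and 6.83 CPM in NRF and overlapping libraries (0.47, adjusted p = 0.0361). Each of these calls was lost without 5 or more of the 8 libraries, with adjusted p-values up to 0.148 without NRF replicate 3 for Atf4, 0.289 without NRF replicate 3 for Hsf1, 0.155 without NRF replicate 3 for Canx, 0.112 without NRF replicate 3 for Dnajb9 and 0.171 without DRF replicate 1 for Smad6. With recovered totals Atf4, Hsf1 and Smad6 were not called (adjusted p = 0.146, 0.17 and 0.0905).

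Genes of immediate response were lower in DRF on average. All 21 immediate early genes tested were negative with a median of -0.43, and Ier5 and Jun were called, against 3.50% called over all genes. Ier5 (gene 15939, chr1:155096367-155099636), an early gene that modulates heat shock factor, had 7.13, 10.1, 8.64 and 8.47 CPM in the DRF libraries, against 15.3, 21.01, 26.7 and 16.9 CPM in the NRF libraries (-1.11 ± 0.21, adjusted p = 0.00249 in limma). Jun, a subunit of the AP-1 factor, had 47.6, 60.4, 58.5 and 59.4 CPM in the DRF libraries, against 71.8, 108, 158 and 88.1 CPM in the NRF libraries (-0.85, adjusted p = 0.0367). Both were apart. Fos, its partner, had 1.84, 6.83, 9.06 and 7.50 CPM in DRF and 3.40, 6.08, 28.2 and 10.01 CPM in NRF, with overlap (adjusted p = 0.482). Ccn2, a matricellular growth factor, had 20.5, 39.3, 30.5 and 51.2 CPM in the DRF libraries, against 58.1, 75.8, 87.3 and 53.8 CPM in the NRF libraries (-0.99, adjusted p = 0.0284). In Ier5 and Jun as in Ccn2 the highest NRF library was replicate 3. Ier5 was kept without any single library (0.00244 to 0.024), Jun in 3 of 8 leave-outs (highest 0.229 without NRF replicate 3) and Ccn2 in 4 of 8 (0.17 without DRF replicate 1).

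Irf4, an interferon regulatory factor of immune cells that is also made in other tissues, had 2.10, 2.26, 1.97 and 2.12 CPM in DRF and 4.34, 3.65, 11.96 and 2.98 CPM in NRF (-0.94, adjusted p = 0.021 in limma). NRF replicate 3 stood far above the rest, and without it the adjusted p was 0.207. Interferon-inducible genes had the same high library. All 18 were negative with a median of -0.54, none was called, and between 0 and 8 were called when 1 library was left out. Oasl2 had 3.75, 6.16, 5.41 and 6.02 CPM in DRF and 7.50, 8.23, 25.7 and 7.50 CPM in NRF (-0.89, adjusted p = 0.0715), and Isg15 had 0.882, 1.10, 1.05 and 1.55 CPM in DRF and 1.78, 1.60, 7.99 and 1.79 CPM in NRF (-0.78, adjusted p = 0.0757). Macrophage markers summed to 83.5 to 119 CPM in DRF and 84.2 to 247 CPM in NRF, and their part in these differences was not tested.

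Among the called genes with whole reads and no overlap, those that rose most in DRF included regulators of muscle genes, ion channel subunits and an inhibitor of growth signalling. Cited4 (gene 56222, chr4:120666563-120667820), a transcriptional cofactor, had 17.3, 11.9, 19.9 and 21.1 CPM in the DRF libraries, against 3.998, 5.91, 5.42 and 10.5 CPM in the NRF libraries (1.35 ± 0.27, adjusted p = 0.00434 in limma). Myod1 (gene 17927, chr7:46376474-46379092), the myogenic transcription factor, had 31.1, 24.2, 20.8 and 33.1 CPM in the DRF libraries, against 14.1, 14.1, 11.5 and 12.5 CPM in the NRF libraries (0.99 ± 0.20, adjusted p = 0.00434). Asb2 (gene 65256, chr12:103321142-103356001), a ubiquitin ligase adaptor of muscle, had 619.9, 503, 547 and 715 CPM in the DRF libraries, against 302, 311, 266 and 393 CPM in the NRF libraries (0.91 ± 0.16, adjusted p = 0.000891). All 3 kept their call without any single library. Myod1 is also a marker of satellite cells, and the other tested markers of that list were not called. The 5 markers summed to 38.9 to 57.3 CPM in DRF and 33.1 to 40.1 CPM in NRF, Myod1 included.

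Subunits of potassium channels were among them. Lrrc38 (gene 242735, chr4:143347076-143371032), an auxiliary subunit of the BK channel, had 80.3, 64.3, 61.1 and 72.8 CPM in the DRF libraries, against 37.95, 29.9, 27.2 and 44.5 CPM in the NRF libraries (0.99 ± 0.17, adjusted p = 0.000891 in limma). Kcng4, a modulatory subunit of voltage-gated channels, had 40.6, 40.8, 39.1 and 36.5 CPM in the DRF libraries, against 25.6, 26.4, 12.2 and 22.8 CPM in the NRF libraries (0.88, adjusted p = 0.0157). Abcc8, the sulfonylurea receptor of the ATP-sensitive channel, had 12.9, 7.19, 9.62 and 14.9 CPM in the DRF libraries, against 3.56, 4.85, 6.72 and 6.86 CPM in the NRF libraries (0.89, adjusted p = 0.0373). For Abcc8, DRF replicate 2 and NRF replicate 4 nearly met. Lrrc38 was kept without any single library (0.000315 to 0.0114), Kcng4 in 6 of 8 leave-outs (highest 0.159 without NRF replicate 3) and Abcc8 in 2 of 8 (0.15 without DRF replicate 1).

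Ddit4l (gene 73284, chr3:137623672-137628332), an inhibitor of mTORC1 expressed in muscle, was higher as well, with 191, 152, 141 and 191 CPM in the DRF libraries, against 91.95, 85.4, 61.3 and 125 CPM in the NRF libraries (0.92, adjusted p = 0.0111 in limma). Tnfaip2, a gene induced by tumour necrosis factor, had 67.8, 68.1, 71.4 and 70.02 CPM in the DRF libraries, against 45.1, 30.98, 22.4 and 35.4 CPM in the NRF libraries (1.07, adjusted p = 0.0266), with the DRF libraries within a narrow range. Golga7b, an accessory protein of palmitoyltransferases, had 13.7, 8.48, 11.5 and 11.4 CPM in DRF and 3.40, 4.47, 4.36 and 8.32 CPM in NRF (1.04, adjusted p = 0.0454). Flrt1, an adhesion protein, had 4.60, 4.09, 4.07 and 3.77 CPM in DRF and 1.22, 1.95, 1.61 and 2.37 CPM in NRF (0.90, adjusted p = 0.0203), Mpp3, a membrane scaffold, had 30.3, 23.9, 26.7 and 27.7 CPM in DRF and 13.2, 11.3, 13.2 and 20.8 CPM in NRF (0.88, adjusted p = 0.0118), and Fam78a had 85.7, 58.3, 69.9 and 79.03 CPM in DRF and 39.1, 33.6, 31.2 and 54.8 CPM in NRF (0.89, adjusted p = 0.0352). Flrt1 lies over Macrod1 and Fam78a over Nup214, and reads of such pairs cannot be separated without strand. Each of these 6 genes lost its call without some libraries, at adjusted p-values up to 0.104 without NRF replicate 3 for Ddit4l, 0.156 without NRF replicate 3 for Tnfaip2, 0.174 without DRF replicate 1 for Golga7b, 0.0869 without NRF replicate 3 for Flrt1, 0.0592 without DRF replicate 1 for Mpp3 and 0.166 without NRF replicate 3 for Fam78a.

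Cep85l, a centrosomal protein gene, was another of the 12 largest falls among called genes with whole reads and no overlap, with 18.97, 26.6, 20.4 and 13.3 CPM in DRF and 62.3, 46.6, 54.6 and 33.3 CPM in NRF (-1.27, adjusted p = 0.0409 in limma). Its span holds Pln, a regulator of the calcium pump in slow fibres, which had 1.40, 3.16, 2.14 and 1.21 CPM in DRF and 4.37, 3.59, 2.12 and 2.98 CPM in NRF. The 10 slow fibre markers had a median of -0.68 with no call. The part of slow fibres in the fall of Cep85l was not tested. Its call was kept in 2 of 8 leave-outs (highest 0.165 without NRF replicate 3).

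**Figure D4:**
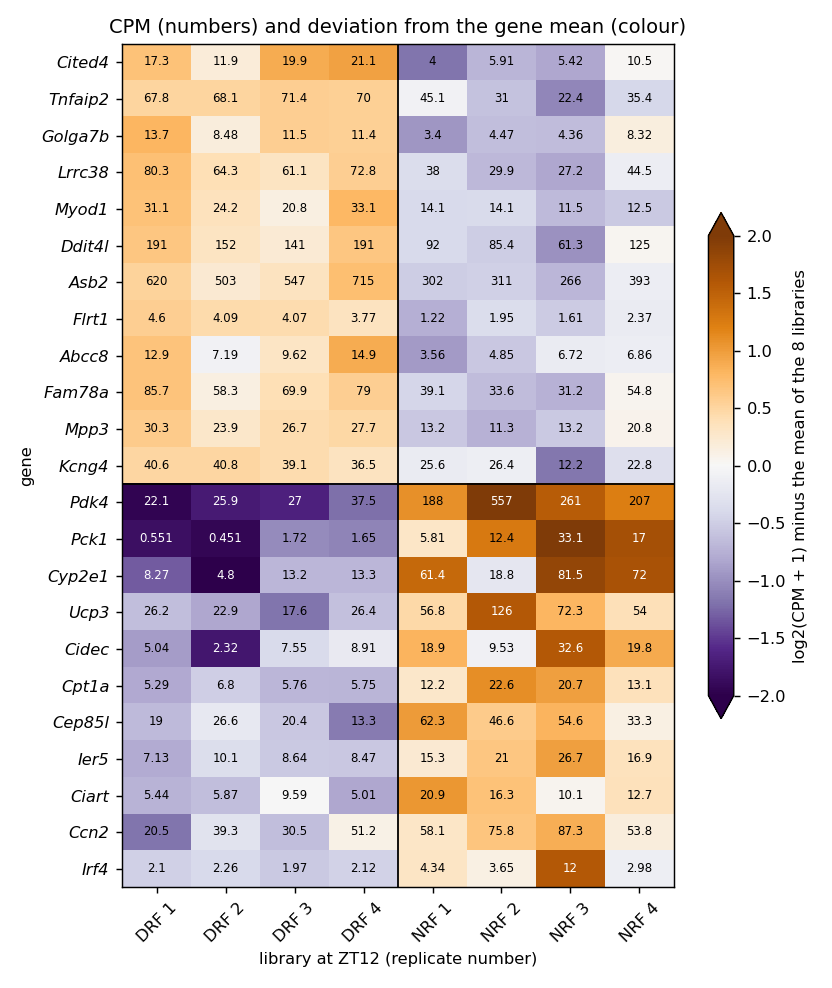
Of the called genes with whole reads and no overlap, the 12 that rose most and 11 of the 12 that fell most in DRF at ZT12, with the CPM of each of the 8 libraries as numbers and the deviation of log2(CPM + 1) from the gene's mean as colour. The groups are apart in every row by that choice, and Pdk4 has the widest contrast, with 22.1 to 37.5 CPM in DRF and 188 to 557 CPM in NRF.

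Of 19 core clock genes, Arntl rose, Ciart fell and 17 did not pass at this hour, against 3.50% called over all genes, and the list's median was -0.05. Arntl (gene 11865, chr7:113178471-113314126), which encodes BMAL1 and is at its daily low at ZT12 in both regimens, had 8.09, 9.35, 7.55 and 12.6 CPM in the DRF libraries, against 4.56, 4.27, 4.36 and 5.24 CPM in the NRF libraries (0.87 ± 0.21, adjusted p = 0.0181 in limma). Ciart (gene 229599, chr3:95878500-95882257), which encodes the repressor CHRONO, had 5.44, 5.87, 9.59 and 5.01 CPM in the DRF libraries, against 20.9, 16.3, 10.1 and 12.7 CPM in the NRF libraries (-1.09 ± 0.24, adjusted p = 0.0111). Neither overlapped, though DRF replicate 3 and NRF replicate 3 nearly met for Ciart. Both were kept in 6 of 8 leave-outs (highest 0.105 without DRF replicate 4 for Arntl and 0.063 without DRF replicate 4 for Ciart).

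Per1, a repressor that glucocorticoids and feeding also induce, had 67.2, 64.7, 92.03 and 62.2 CPM in DRF and 109.8, 129, 104 and 115 CPM in NRF, without overlap but short of the threshold (-0.69, adjusted p = 0.223 in limma). Per2 had 33.9 ± 2.09 CPM in DRF and 39.3 ± 2.26 CPM in NRF (SD, n = 4 each), also without overlap (adjusted p = 0.763). The other 15 genes overlapped, with differences from -0.39 for Dbp to 0.30 for Bhlhe41. Dbp and Nr1d1 had decimal reads, overlap Sphk2 and Thra on the genome and are uncertain. Clock stood at 21.6 ± 0.950 CPM in DRF and 23.4 ± 3.79 CPM in NRF, Nr1d2 at 173 ± 12.4 CPM in DRF and 198 ± 16.2 CPM in NRF, Cry1 at 19.8 ± 0.868 CPM in DRF and 16.7 ± 2.42 CPM in NRF and Tef at 462 ± 24.6 CPM in DRF and 453 ± 37.4 CPM in NRF (SD, n = 4 each), with adjusted p-values of 0.794, 0.419, 0.291 and 0.92.

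Ciart and Asb2 are shown with their promoters because they are called genes that hold the E-box of the clock, once more in the RefSeq windows of 300 bases (GRCm38.p6, 5′ to 3′) with CACGTG in capitals.
Ciart chr3:95882179-95882478 minus strand: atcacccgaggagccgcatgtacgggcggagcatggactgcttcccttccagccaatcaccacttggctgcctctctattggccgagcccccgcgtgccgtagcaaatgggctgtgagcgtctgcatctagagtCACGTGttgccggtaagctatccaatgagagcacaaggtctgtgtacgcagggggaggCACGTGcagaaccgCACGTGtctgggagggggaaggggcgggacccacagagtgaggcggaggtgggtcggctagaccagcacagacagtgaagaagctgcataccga
Asb2 chr12:103355952-103356251 minus strand: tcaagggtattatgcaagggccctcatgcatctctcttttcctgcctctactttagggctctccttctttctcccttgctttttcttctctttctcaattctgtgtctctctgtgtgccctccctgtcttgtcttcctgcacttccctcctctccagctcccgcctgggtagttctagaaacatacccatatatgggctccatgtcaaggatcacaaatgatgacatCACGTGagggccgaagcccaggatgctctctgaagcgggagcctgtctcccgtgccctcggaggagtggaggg
Ciart held 3 E-boxes, the first 116 bases before the start, and Asb2 held 1, 23 bases before it. Among the 49 genes chosen in that way, the core clock included, that had a promoter in the table, 8 held an E-box (Asb2, Bhlhe41, Ciart, Cry1, Dnajb9, Lipe, Per1 and Tef), against 8.09% of all 27025 genes with a window, and 4 of the 8 are clock genes other than Ciart. The absence of these letters from a window says nothing of the factor.

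Lists of glucose use and respiration held no call. The 22 genes of glucose uptake and glycolysis had a median of 0.27 with 16 positive, and Pgam2, a muscle glycolytic enzyme, had 2762, 2205, 2448 and 2610 CPM in DRF and 1605, 2058, 1624 and 2136 CPM in NRF, without overlap (adjusted p = 0.0744 in limma). All 25 subunits of oxidative phosphorylation were positive with a median of 0.11. With recovered totals 6 were positive and their median was -0.05, against -0.16 over all genes. The 18 glycogen genes had a median of 0.06, the 27 insulin and IGF signalling genes -0.10, the 21 genes of branched-chain amino acid breakdown 0.03 and the 18 amino acid transporters -0.19. Fast fibre markers had a median of 0.38 and muscle markers 0.35, also with no call, and these became 0.22 and 0.19 with recovered totals and 0.00 for both with quantile normalization. Quantile normalization gives each rank the same value in every library. Many of these markers hold the top ranks, so their 0.00 was largely fixed in advance. In all, 13 of the 27 lists had no member called, and 28 of the 502 distinct list genes were called, against 3.50% of all genes.

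The difference at ZT12 was then set against the difference at ZT0 and ZT24, when the feeding states are turned round. It differed for 1026 genes (8.53%), with 445 higher and 581 lower at ZT12, and 254 of the 421 genes called at ZT12 were among them. Of the 421 genes, 249 (59.1%) had the opposite sign at ZT0 and ZT24, against 48.7% of all genes. Against the mean difference of all other times, 241 genes differed (2.004%), 116 of them higher and 125 lower at ZT12, and 167 were called at ZT12 as well. Both tests contain the ZT12 difference by which the 421 genes were called, so part of each overlap was fixed in advance. The count against the other times ranged from 79 without DRF replicate 4 to 710 without NRF replicate 4, and it was 95 without DRF replicate 1, 123 without DRF replicate 3, 100 without NRF replicate 2 and 80 without NRF replicate 3.

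Several genes changed side between these hours, among them Gpam. It averaged 217 ± 19.1 CPM at ZT12 in DRF and 382 ± 73.04 CPM in NRF, and 395 ± 57.5 CPM at ZT0 in DRF and 215 ± 17.7 CPM in NRF (SD, n = 4 each). The difference was -0.80 at ZT12 and 0.72 at ZT0 and ZT24, and the test of the change between them gave -1.51 (adjusted p = 4.24e-08 in limma). Cpt1a differed by -1.35 and 0.91 (change -2.27, adjusted p = 1.84e-07), and Fbxo21 by -0.67 and 0.58 (-1.25, 1.22e-07). Pdk4 had -3.27 and 3.23 (-6.50, 4.74e-06). Pik3c3, the lipid kinase that starts autophagosomes, made small and tight moves, with 18.4, 19.4, 18.1 and 18.3 CPM in DRF and 23.1, 24.7, 22.2 and 22.3 CPM in NRF at ZT12 and differences of -0.30 and 0.29 (-0.59, 4.48e-07).

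Other genes were higher at ZT12 and lower at ZT0 and ZT24. Klhl30 (gene 70788, chr1:91351073-91362404), a kelch-like protein, had 78.2, 73.5, 74.6 and 77.9 CPM in the DRF libraries, against 50.7, 53.6, 41.2 and 53.4 CPM in the NRF libraries at ZT12 (0.61 ± 0.09, adjusted p = 0.000512 in limma). At ZT24 it averaged 72.1 ± 6.15 CPM in DRF and 99.6 ± 12.7 CPM in NRF, and the change between the hours was 1.08 (adjusted p = 2.51e-08). Myod1 and Lrrc38 changed by 1.95 and 1.68 (adjusted p = 4.48e-07 and 4.48e-07), from differences of 0.99 and 0.99 at ZT12 against -0.96 and -0.69 at ZT0 and ZT24. Srebf1 had 0.82 at ZT12 against -0.42, and it passed the test of the change (adjusted p = 0.00047).

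Of the 421 called genes, 172 had the same sign at ZT0 and ZT24 as at ZT12. The 249 with the opposite sign include genes that barely differed at ZT0 and ZT24, such as Asb2, Ier5 and Ciart. Asb2 had a difference of -0.02 and Ier5 of 0.05 at ZT0 and ZT24, and the changes to ZT12 were 0.93 and -1.16 (adjusted p = 0.000914 and 0.00177 in limma). Asb2 averaged 417 ± 91.2, 596 ± 92.6 and 931 ± 41.8 CPM at ZT8, ZT12 and ZT16 in DRF and 393 ± 24.1, 318 ± 53.6 and 649.7 ± 170.1 CPM in NRF (SD, n = 4 each), so that its level was already above that of ZT8 in DRF at lights off. Ciart, high at ZT8 and ZT12 in both regimens, had a difference of 0.01 at ZT0 and ZT24, where it stood near 1 CPM (change -1.10, adjusted p = 0.0137). Canx, Abcc8 and Gabarapl2 did not pass that test (adjusted p = 0.318, 0.0549 and 0.319).

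**Figure D5:**
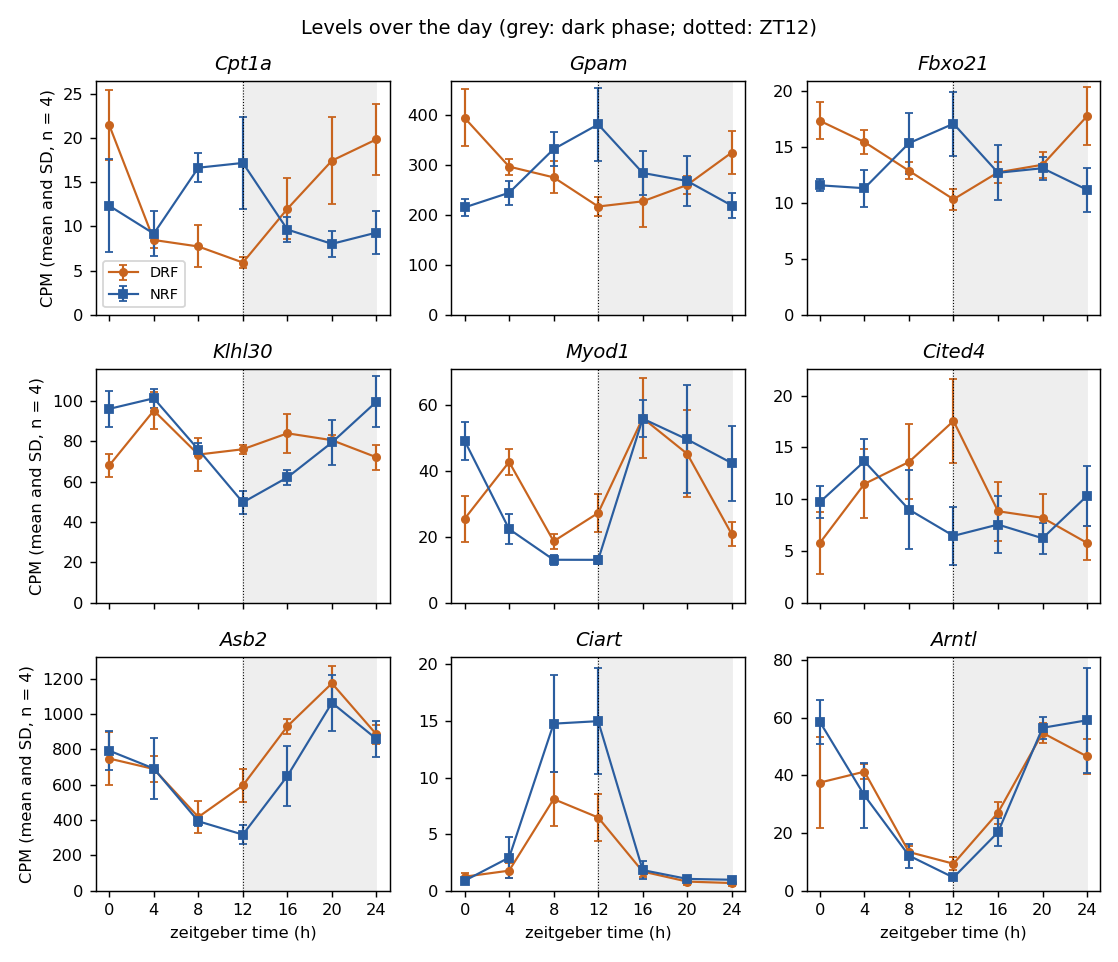
Mean CPM and SD (n = 4) at ZT0 to ZT24 in DRF (orange circles) and NRF (blue squares) for 9 genes called at ZT12, with the dark phase in grey and ZT12 dotted. Cpt1a, Gpam and Fbxo21 are lower in DRF at ZT12 and higher at ZT0 and ZT24, Klhl30, Myod1 and Cited4 the other way round, and Asb2 differs mainly near lights off.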

How the data were processed

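Per the labels' protocols, polyadenylated RNA of frozen gastrocnemius was copied from random hexamers and read as paired ends of 100 bases, with no step that marks the strand. Per the submitters' processing notes, HISAT2, Bowtie2 and RSEM were used with mm10 and GRCm38.p6; their versions and roles and the annotation used are not stated in the sources at hand. The authors deposited 1 table of 19072 genes by 56 libraries headed TPM, whose values are a score and not TPM: a factor per library times log2(1 + CPM), with CPM the read count per 1000000 of a library size, divided by gene length.

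The formula was inverted gene by gene, which gave reads for 17443 genes, 15228 of them whole (within 0.001 of a read for 90% of values) and 2215 with decimals, reads then being shared between genes. The remaining 1629 genes had fewer than 4 values above 0. More than 1 gene length fitted for 1332 of the 17443 genes. The length that fitted the most values was then taken, or the shortest of equals, so the reads of such genes are uncertain. Run forwards, the formula returned the deposited values of the genes tested within 0.914%. Over all genes with recovered reads, the largest relative deviation was 0.296. How the authors derived the library sizes, which were 0.8654 to 1.022 times the recovered totals in DRF and 0.9415 to 1.150 times in NRF at ZT12, is not known.

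Genes with a mean of at least 1 CPM (12025) were fitted on log2(CPM + 1) in all 14 groups with limma 3.58.1 (R 4.3.3, lmFit, eBayes with trend), with Benjamini-Hochberg adjustment of p-values. DRF was compared with NRF at ZT12, and that difference with those at ZT0 and ZT24 and at all other times. The code was tested on simulated data. Alternatives were the library size, scaling, pseudocount (0.25), filter, library weights, a gene-length trend, a replicate block and leaving out each library.

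Genes named are the 12 largest differences in each direction among called genes whose groups do not overlap and whose reads are whole. Such genes also needed a single fitting length and a symbol other than a Gm or Rik name, here and wherever the largest rises and falls are given. Also named are up to 4 called members per list, all core clock genes and, under the same conditions, the 5 smallest p-values of each test between hours. Others are given by value. Some of these genes are not reported here. The members and lists were chosen with earlier results of these data known. Symbols and GRCm38.p6 coordinates came from RefSeq by gene ID (12006 of 12025 matched), as did promoters. The authors' rhythm tables were not used.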

Additional observations from a re-analysis of the deposited data

Results flagged for a closer look

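In 5 of 96 groups of 4 libraries examined (48 genes in both regimens), 1 library lay far from the others, with a gap to the nearest that took most of the group's range. Chance gives about 1 in 20 groups. These were Dnajb9 in DRF replicate 3 (44.6 CPM), Fdps in DRF replicate 2 (24.6 CPM), Nsdhl in DRF replicate 4 (10.8 CPM), Jun in DRF replicate 1 (47.6 CPM) and Irf4 in NRF replicate 3 (12.0 CPM).

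The difference between DRF and NRF at ZT12 was not the one at ZT0 and ZT24 for 1026 of 12025 genes, and 6 of these were flagged. The change of the difference was -6.5 for Pdk4, -2.27 for Cpt1a, -1.51 for Gpam, -1.25 for Fbxo21, -0.59 for Pik3c3 and 1.08 for Klhl30, all on the log2(CPM + 1) scale and each past the adjusted threshold in limma.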

How the results depend on the processing

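Of the 421 genes called at ZT12, the count was 728 with recovered totals as library size, 22 with only the 8 libraries of ZT12 in the fit, 1358 with library weights, and 51 to 1118 with 1 library left out, where 50 to 409 of the 421 were shared. It was 320 to 531 with median-of-ratios scaling, quantile normalization, log2 of the deposited values, a pseudocount of 0.25, no filter, a filter of 5 CPM or the gene-length trend removed. The count against the other times (241) was 924 with library weights and 79 to 710 with 1 library left out, and that against ZT0 and ZT24 (1026) was 2132 and 722 to 1344. The cause of these shifts was not tested. Among the 48 called genes chosen by size, by list or by a change between hours no sign changed. With only the 8 libraries 38 lost their call, with recovered totals 10, and without single libraries between 1 (DRF replicate 2 or NRF replicate 4) and 34 (NRF replicate 3). Same-numbered deviations at ZT12 correlated at -0.283, 0.236, -0.171 and 0.246. Over all pairs of groups the mean correlation was -0.0166 for same-numbered libraries and 0.0058 for the others. No pairing by replicate number was seen, but such correlations cannot exclude it. A replicate block gave 380 calls at ZT12, 216 against the other times and 1005 against ZT0 and ZT24, with 2 of these 48 calls lost. Levels near 1 CPM, as for Angptl4 and Pck1 in DRF, rest on few reads.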

Other observations

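Several gene groups were noticed after their values were seen, and no test was made of them. Over all genes, 2.15% were called higher and 1.36% lower. Cytosolic ribosomal protein genes leaned higher in DRF at ZT12, with 79 of 81 positive, a median of 0.24 and 11 called higher, among them Rpsa with 780.0, 645, 698 and 780.1 CPM in DRF and 538, 566, 534 and 601 CPM in NRF. Mitochondrial ribosomal protein genes had 73 of 78 positive, a median of 0.18 and 7 called higher, and the 37 proteasome subunits had a median of 0.18 and 4 called higher. With recovered totals these medians were 0.08, 0.02 and 0.02, against -0.16 over all genes. Then 65 cytosolic and 43 mitochondrial ribosomal protein genes were positive. Ribosomal protein genes are short, with a median model length of 1770 bases, against 4492 over all genes, 3004 among genes called higher and 5302 among genes called lower. The rank correlation of gene length with a library's deviation ran from -0.286 to 0.010 in the DRF libraries and from -0.012 to 0.135 in the NRF libraries, and the medians were 0.21, 0.16 and 0.19 with that trend removed.

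Of 6 genes of the replicative helicase, 4 (Mcm3, Mcm4, Mcm6 and Mcm7) were called lower in DRF, against 1.36% of all genes, and the 6 had a median of -0.48. Mcm4 had 4.12, 5.16, 4.28 and 5.18 CPM in DRF and 7.15, 7.34, 6.85 and 6.15 CPM in NRF (adjusted p = 0.00943 in limma). Of 12 genes of the neuromuscular endplate, Ache, Chrnb1 and Chrne were called higher and Agrn lower, against 3.50% called over all genes. Ache, acetylcholinesterase, had 53.9, 44.7, 51.5 and 48.6 CPM in DRF and 27.5, 35.8, 33.01 and 37.7 CPM in NRF (0.56, adjusted p = 0.0369), Chrne, the adult subunit of the acetylcholine receptor, had 13.7, 11.4, 14.1 and 12 CPM in DRF and 8.37, 10.4, 7.96 and 7.84 CPM in NRF (0.52, 0.0308), and Agrn, which clusters the receptor, had 14.5, 18.7, 17.2 and 16.4 CPM in DRF and 26.6, 23.9, 23.8 and 18.3 CPM in NRF (-0.44, 0.036). Kcnj11, the pore of the ATP-sensitive potassium channel to which Abcc8 belongs, had 251, 185, 232 and 237 CPM in DRF and 139, 159.9, 135 and 178 CPM in NRF, without overlap (0.56, adjusted p = 0.00982). Abcc9 and Kcnj8, the other tested genes of such channels, were not called (0.14 and -0.05, adjusted p = 0.456 and 0.884 in limma). Abcc9 was far more abundant than Abcc8, with means of 380 CPM in DRF and 347 CPM in NRF against 11.1 and 5.50 CPM.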
